A study of Arabidopsis thaliana with 12 samples.

Results

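A small set of Arabidopsis genes moved in opposite directions in the roots of 2 genotypes after the same cold treatment. There were 19 such genes of 13356 named on the array: 8 were higher at 4 °C than at 23 °C in ozs3 and lower in Col-0, and 11 were lower in ozs3 and higher in Col-0. A gene was counted when its mean change between temperatures was at least 0.4 on the log2 scale in both genotypes, with opposite signs, and when the 3 cold arrays did not overlap with the 3 control arrays in either genotype. The genes were thus chosen by their cold changes, which are given as a description, without a test. A gene was represented by its brightest probe set among those assigned to a single gene, and 9 loci were left out by the rule. Of these 9, 6 met the thresholds, so that 25 of the 13356 genes (0.187%) met them in all. For comparison, 3053 genes met the same thresholds with 1 direction shared by the genotypes, 1239 being higher and 1814 lower in the cold.

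The plants were ozs3, overly zinc sensitive 3, a mutant in the Col-0 background, and the wild type was Col-0. The labels name neither the gene mutated in ozs3 nor its allele, so the mutant could not be checked through its own transcript. Plants of both genotypes grew hydroponically under short days (8 h light, 16 h dark), and at the age of 4 weeks they spent 24 h at 4 °C or stayed at 23 °C. The 4 groups (ozs3 at 4 °C, ozs3 at 23 °C, Col-0 at 4 °C and Col-0 at 23 °C) held 3 biological replicates each, measured on 12 Affymetrix ATH1 arrays. Roots were used whole, so that fewer cells of a type and less RNA per cell cannot be told apart.

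Cold acclimation is the process by which temperate plants, exposed to low but non-freezing temperature, reset a large share of their transcripts through cold-induced transcription factors, calcium and hormone signals. The reaction norms of a gene are said to cross when the order of the genotypes changes between environments. Responses of opposite sign do not by themselves require such a change of order. The genes collected here include a secreted defence peptide, a proteinase inhibitor, an immune receptor, lipid- and RNA-binding proteins and several metabolic enzymes.

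All values below are log2 intensities as the authors deposited them, so that a difference of 1 is a 2-fold change. Across probe sets, arrays of 1 group correlated with an r of 0.994 to 0.997, as a description. The root hair genes EXPA7 and EXPA18 averaged 9.19 and 8.98 over all arrays, and the shoot genes SBPASE and PRK averaged 4.05 and 4.43, below the level of 5 that was treated as dim. The remaining measured shoot gene, RCA, averaged 6.96 and was not dim, and the remaining root hair gene, XTH26, averaged 7.62. In ozs3 replicate 3 at 23 °C the 7 measured genes of a list of cold-regulated genes stood a median of 1.23 above the other arrays of the group. In that same array the 19 genes deviated from the other arrays by a median size of 0.216, where the medians of the other arrays ran from 0.0845 to 0.238, and AT2G38870 deviated most (−0.65).

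**Figure D1:**
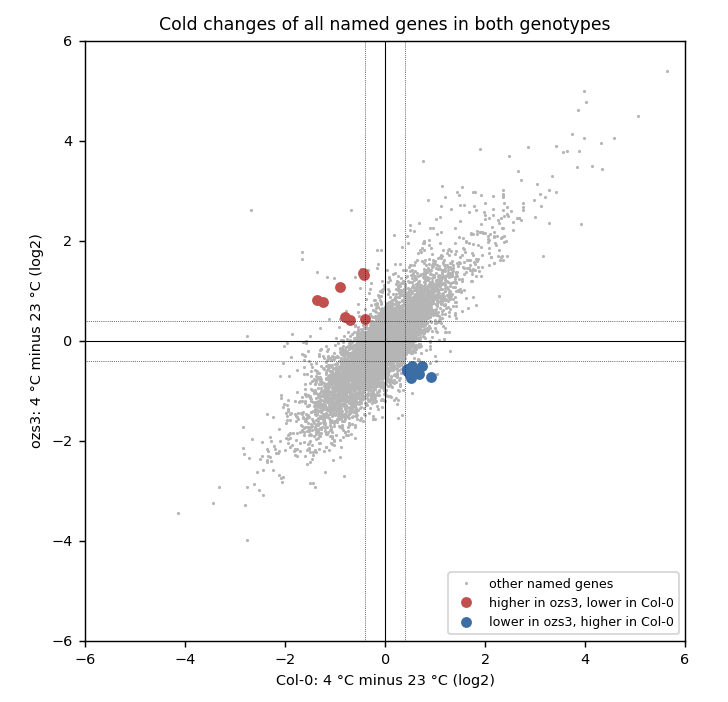
Cold change (4 °C minus 23 °C, log2) of each named gene in ozs3 (vertical axis) against Col-0 (horizontal axis); grey points are all other named genes and dotted lines mark changes of 0.4 in either direction. Some of the 8 red points (higher in ozs3, lower in Col-0) lie further from the centre than all 11 blue points (lower in ozs3, higher in Col-0). The red point of AT4G19460 lies nearest to it. The grey points in the same corners are loci left out by the rule or genes whose arrays overlapped.

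Among the 8 genes higher in cold ozs3, the change in ozs3 lay between 0.41 and 1.36 with a median of 0.79, and the change in Col-0 lay between −1.36 and −0.40 with a median of −0.76. For 5 of the 8 at least 1 of the changes was 2-fold or more, which held for none of the 11 genes of the other direction. The group is described by what its members encode, beginning with those linked to defence.

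AT4G28460 encodes the precursor of PIP1, a secreted peptide that is induced by microbial patterns and amplifies immune signalling through a receptor-like kinase. In ozs3 it stood at 7.05, 7.98 and 7.53 in the 3 arrays at 4 °C, against 6.95, 6.34 and 6.86 at 23 °C. In Col-0 it stood at 6.68, 6.61 and 6.68 at 4 °C, against 8.13, 6.89 and 9.02 at 23 °C. The cold arrays of Col-0 were nearly alike and low, while its control arrays were spread widely, with an SD of 1.07 against 0.04 in the cold. The cold change was 0.81 ± 0.39 (SE) in ozs3 and −1.36 ± 0.39 in Col-0. The change in Col-0 was −0.86 without Col-0 replicate 3 at 23 °C and −1.92 without replicate 2, so its size rested on single control arrays although its direction did not.

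AT2G38870, a proteinase inhibitor of the potato type I (PR-6) family, which acts against proteases of herbivores and pathogens, was among the brightest of the genes. Its values in ozs3 were 10.86, 10.90 and 10.77 at 4 °C, against 10.60, 10.58 and 9.94 at 23 °C. In Col-0 they were 10.65, 10.93 and 10.33 at 4 °C, against 11.28, 11.70 and 11.36 at 23 °C. The cold arrays of both genotypes overlapped, and the genotypes stood apart at 23 °C, where all ozs3 arrays lay below all Col-0 arrays. The change in ozs3, 0.47 ± 0.18, came down to 0.25 without ozs3 replicate 3 at 23 °C, the lowest of all arrays, and was then under the threshold of 0.4. The change in Col-0 was −0.81 ± 0.18.

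CCOAMT (AT1G67980) encodes a caffeoyl-CoA O-methyltransferase, of an enzyme family that methylates phenylpropanoids on the way to lignin. In ozs3 the arrays gave 8.11, 8.49 and 7.83 at 4 °C, against 7.33, 7.01 and 6.90 at 23 °C. In Col-0 they gave 8.17, 8.55 and 7.54 at 4 °C, against 9.22, 8.89 and 8.88 at 23 °C. From control levels that lay 3.77-fold apart, the 2 genotypes reached nearly the same level in the cold, 8.14 ± 0.33 in ozs3 and 8.09 ± 0.51 in Col-0 (SD, n = 3 each). The cold change was 1.06 ± 0.22 in ozs3 and −0.91 ± 0.22 in Col-0, the largest pair of opposite changes by the smaller of the 2 among all 19 genes.

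AT4G19460, of the UDP-glycosyltransferase superfamily, followed the same course with smaller changes. It stood at 7.21, 7.45 and 7.32 in ozs3 at 4 °C, against 7.10, 6.69 and 6.88 at 23 °C. In Col-0 it stood at 7.25, 7.43 and 7.19 at 4 °C, against 7.71, 7.48 and 7.89 at 23 °C. The cold arrays of the genotypes overlapped and the control arrays did not. With changes of 0.44 ± 0.13 in ozs3 and −0.40 ± 0.13 in Col-0 it lay just inside the threshold, and it met the rule in 6 of the 12 settings that left out 1 array.

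AT1G76600, a gene of the PADRE family of stress-responsive proteins, crossed over between temperatures. Its ozs3 arrays read 9.38, 9.75 and 9.39 at 4 °C, against 8.87, 8.65 and 8.69 at 23 °C. Its Col-0 arrays read 9.02, 9.03 and 8.71 at 4 °C, against 10.02, 10.04 and 10.45 at 23 °C. All ozs3 arrays were above all Col-0 arrays at 4 °C and below them at 23 °C. The cold change was 0.77 ± 0.14 in ozs3 and −1.25 ± 0.14 in Col-0, or 1.71-fold higher in cold ozs3 and 2.38-fold lower in cold Col-0.

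AT1G32920 was the brightest of the 19 genes, with a mean of 10.96 over all arrays. Its ozs3 values were 11.62, 11.78 and 11.78 at 4 °C, against 10.16, 10.33 and 10.60 at 23 °C. Its Col-0 values were 10.42, 10.75 and 10.77 at 4 °C, against 10.99, 10.91 and 11.37 at 23 °C. The change in ozs3, 1.36 ± 0.14 or 2.57-fold, was the largest of the 8 genes in that genotype, while that in Col-0 was −0.44 ± 0.14. AT5G57510 had nearly the same profile at a lower level. It stood at 6.63, 7.09 and 6.96 in ozs3 at 4 °C, against 5.44, 5.59 and 5.69 at 23 °C. Col-0 gave 5.79, 5.90 and 5.85 at 4 °C, against 6.01, 6.28 and 6.50 at 23 °C. Its changes were 1.32 ± 0.13 in ozs3 and −0.42 ± 0.13 in Col-0. In both genes the ozs3 arrays lay above those of Col-0 at 4 °C and below them at 23 °C, without overlap, and in both the Col-0 change was close to the threshold.

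AT3G54000 crossed in the same way over a narrower range. In ozs3 it stood at 8.60, 8.24 and 8.30 at 4 °C, against 7.91, 7.87 and 8.15 at 23 °C. In Col-0 it stood at 8.13, 7.97 and 7.82 at 4 °C, against 8.65, 8.83 and 8.55 at 23 °C. No array of ozs3 overlapped with one of Col-0 at either temperature, with changes of 0.41 ± 0.12 in ozs3 and −0.70 ± 0.12 in Col-0.

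**Figure D2:**
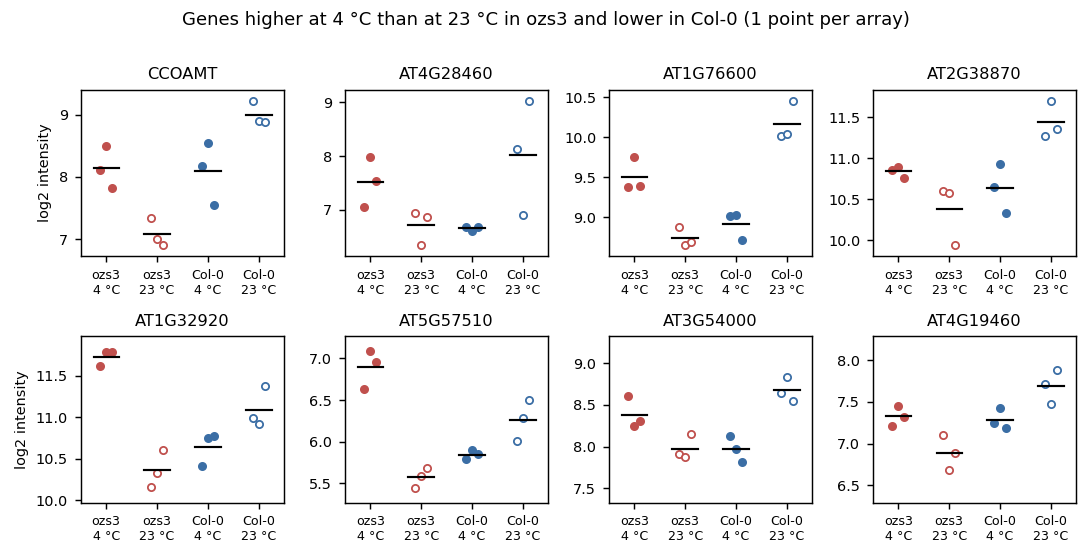
Log2 intensity of the 8 genes higher at 4 °C than at 23 °C in ozs3 and lower in Col-0; each point is 1 array, filled at 4 °C and open at 23 °C, red for ozs3 and blue for Col-0, and bars are group means. In CCOAMT, AT2G38870 and AT4G19460 the cold groups of both genotypes overlap, and in AT1G76600, AT1G32920, AT5G57510 and AT3G54000 the order of the genotypes turns over between temperatures without overlap.

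The 11 genes lower in cold ozs3 and higher in cold Col-0 had changes of smaller median size. These lay between −0.75 and −0.50 in ozs3 with a median of −0.63, and between 0.43 and 0.92 in Col-0 with a median of 0.55. They fell into a set that was far higher in ozs3 at 23 °C and a set that parted mainly at 4 °C.

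In the first set, AT5G43030 and AT5G02350 encode proteins with cysteine- and histidine-rich C1 domains, a zinc-binding fold that in animals binds diacylglycerol. AT5G43030 stood at 6.82, 6.66 and 6.91 in ozs3 at 4 °C, against 7.42, 7.40 and 7.58 at 23 °C. In Col-0 it stood at 6.58, 6.60 and 6.65 at 4 °C, against 5.97, 5.76 and 6.04 at 23 °C. The ozs3 arrays were above all Col-0 arrays at both temperatures, by 0.19 ± 0.10 at 4 °C and by 1.55 ± 0.10 at 23 °C, so that the cold brought the genotypes together from both sides. Its changes were nearly mirror images, −0.67 ± 0.10 in ozs3 and 0.69 ± 0.10 in Col-0.

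AT5G02350 stood at 5.71, 6.13 and 6.49 in ozs3 at 4 °C, against 6.71, 6.79 and 6.98 at 23 °C. In Col-0 it stood at 6.13, 6.29 and 6.99 at 4 °C, against 5.51, 5.42 and 5.71 at 23 °C. The control groups were tight and separate, whereas the cold groups overlapped and had SDs of 0.39 in ozs3 and 0.46 in Col-0. Its changes, −0.72 ± 0.21 in ozs3 and 0.92 ± 0.21 in Col-0, were the widest apart of the 11 genes. With repeated quantile normalization its cold and control arrays overlapped, and the gene did not meet the rule.

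AT1G73490, of the RNA-binding RRM family, and AT1G24240, of the ribosomal protein L19 family, belonged to the same set. AT1G73490 gave 9.30, 9.06 and 8.94 in ozs3 at 4 °C, against 9.91, 9.96 and 9.69 at 23 °C. In Col-0 it gave 8.81, 8.85 and 8.93 at 4 °C, against 8.28, 8.12 and 8.63 at 23 °C. All ozs3 arrays were above all Col-0 arrays at both temperatures, by a mean of 0.23 ± 0.13 at 4 °C and 1.51 ± 0.13 at 23 °C. Its cold changes were −0.75 ± 0.13 in ozs3 and 0.52 ± 0.13 in Col-0.

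AT1G24240 was dimmer and read 5.79, 6.18 and 5.58 in ozs3 at 4 °C, against 6.65, 6.32 and 6.59 at 23 °C. In Col-0 it read 5.76, 5.55 and 5.74 at 4 °C, against 5.23, 5.02 and 5.33 at 23 °C. Here too the genotypes stood apart at 23 °C, by 1.33 ± 0.14, and overlapped at 4 °C. The cold changes were −0.67 ± 0.14 in ozs3 and 0.49 ± 0.14 in Col-0.

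In the second set, the genotypes were closer at 23 °C than in the cold, apart from AT4G10280, whose gaps were of like size. NTMC2T6.1 (AT1G53590) encodes a membrane-anchored protein with C2 domains, which bind lipids and in many proteins calcium. It read 7.11, 7.39 and 7.24 in ozs3 at 4 °C, against 7.84, 7.87 and 7.92 at 23 °C. In Col-0 it read 8.18, 8.07 and 8.23 at 4 °C, against 7.59, 7.58 and 7.59 at 23 °C. Both control groups were very tight, with SDs of 0.04 in ozs3 and 0.01 in Col-0, and the order of the genotypes turned over without overlap. The cold change was −0.63 ± 0.08 in ozs3 and 0.58 ± 0.08 in Col-0.

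AT3G43610 encodes a protein of the Spc97/Spc98 family, components of the gamma-tubulin complexes that nucleate microtubules. Its ozs3 arrays read 6.22, 5.79 and 6.0 at 4 °C, against 6.76, 6.62 and 6.39 at 23 °C. Its Col-0 arrays read 6.83, 6.70 and 6.89 at 4 °C, against 6.19, 6.20 and 6.30 at 23 °C. The genotypes again changed order without overlap, with changes of −0.59 ± 0.12 in ozs3 and 0.58 ± 0.12 in Col-0. Of the 11 genes, 3 changed order in this way, the third being AT4G10280, of the RmlC-like cupin superfamily. It stood at 7.07, 7.34 and 7.24 in ozs3 at 4 °C, against 7.86, 7.74 and 7.59 at 23 °C. In Col-0 it stood at 7.85, 7.86 and 7.76 at 4 °C, against 7.36, 7.01 and 6.88 at 23 °C. Its cold changes were −0.51 ± 0.12 in ozs3 and 0.74 ± 0.12 in Col-0, and its gaps between genotypes were nearly equal and opposite, −0.61 ± 0.12 at 4 °C and 0.64 ± 0.12 at 23 °C.

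The metabolic genes of this set were AT4G02850, of the phenazine biosynthesis PhzC/PhzF family, and AT4G29270, of the HAD superfamily of acid phosphatases. AT4G02850 had the same mean in both genotypes at 23 °C, 8.09 ± 0.23 in ozs3 and 8.09 ± 0.15 in Col-0 (SD, n = 3 each). In ozs3 it stood at 7.68, 7.59 and 7.50 at 4 °C, against 8.20, 8.24 and 7.82 at 23 °C. In Col-0 it stood at 8.60, 8.50 and 8.82 at 4 °C, against 8.27, 8.00 and 8.01 at 23 °C. The gap of −1.05 ± 0.12 at 4 °C, 2.07-fold lower in ozs3, was the largest of the 11 genes at that temperature. It was made up about equally of a lower level in ozs3 (−0.50 ± 0.12) and a higher one in Col-0 (0.55 ± 0.12). With 1 common median for all arrays the change in ozs3 was −0.37, and the gene did not meet the rule.

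AT4G29270 stood at 8.71, 9.15 and 8.54 in ozs3 at 4 °C, against 9.51, 9.74 and 9.18 at 23 °C. In Col-0 it stood at 9.78, 9.61 and 9.78 at 4 °C, against 9.53, 9.26 and 8.89 at 23 °C. The control groups of the genotypes overlapped and the cold groups did not. The changes were −0.68 ± 0.18 in ozs3 and 0.49 ± 0.18 in Col-0. The Col-0 change was 0.32 without Col-0 replicate 3 at 23 °C, under the threshold, and with 1 common median for all arrays the gene did not meet the rule.

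AT3G51250 is related to senescence- and dehydration-associated proteins. In ozs3 it gave 8.47, 8.63 and 8.54 at 4 °C, against 9.23, 9.03 and 9.18 at 23 °C. In Col-0 it gave 9.53, 9.51 and 9.38 at 4 °C, against 9.04, 9.12 and 8.97 at 23 °C. The SDs of its 4 groups lay between 0.08 and 0.10, and its cold changes of −0.60 ± 0.08 in ozs3 and 0.43 ± 0.08 in Col-0 were small but tight. AT1G63880 encodes an immune receptor of the TIR-NBS-LRR class. It read 5.53, 5.11 and 5.42 in ozs3 at 4 °C, against 6.02, 5.88 and 5.88 at 23 °C. In Col-0 it read 6.39, 6.15 and 6.04 at 4 °C, against 5.85, 5.95 and 5.51 at 23 °C. Both genes overlapped between genotypes at 23 °C and were lower in every ozs3 array at 4 °C. The change of AT1G63880 in ozs3 was −0.57 ± 0.13, and that in Col-0, 0.43 ± 0.13, was 0.30 without Col-0 replicate 3 at 23 °C.

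**Figure D3:**
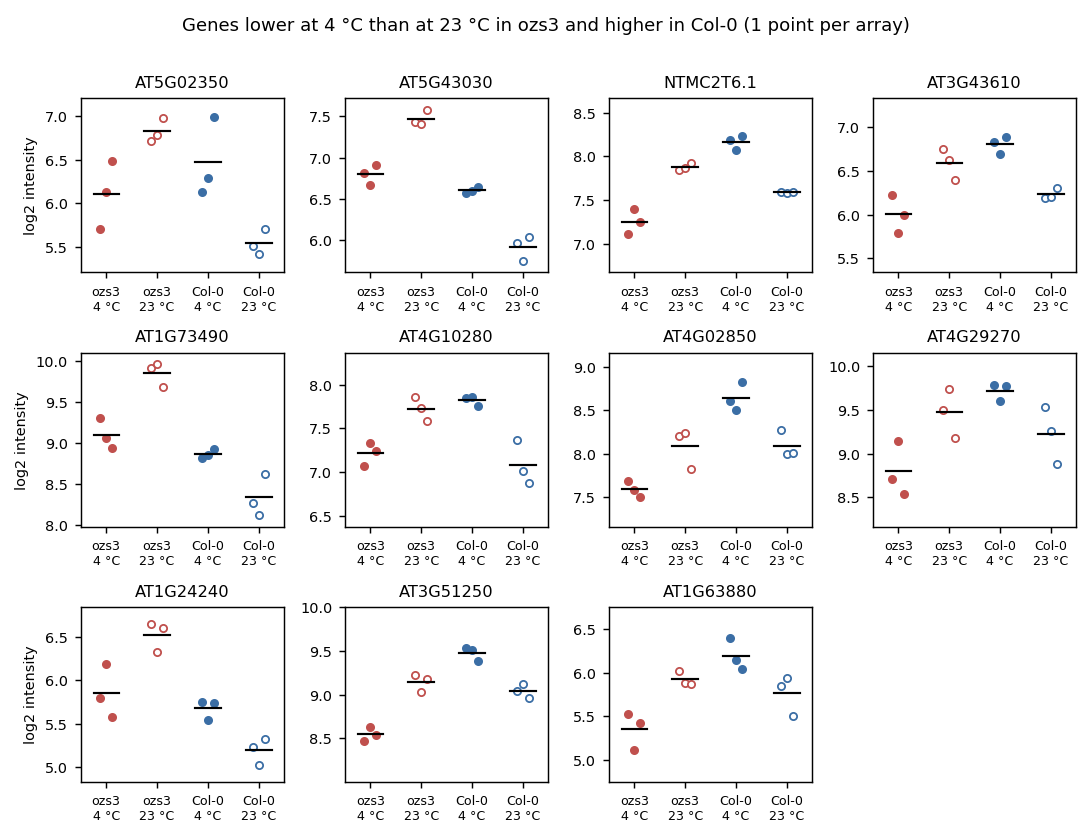
Log2 intensity of the 11 genes lower at 4 °C than at 23 °C in ozs3 and higher in Col-0; points, colours and bars as in the plot of the other 8 genes. In AT5G43030, AT1G73490, AT1G24240 and AT5G02350 the open red points (ozs3 at 23 °C) lie far above the open blue points (Col-0 at 23 °C), and in the other 7 genes the gap is seen mainly between the filled points at 4 °C or is of like size at both temperatures.

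Set side by side at each temperature, the 8 genes higher in cold ozs3 all had lower means in ozs3 than in Col-0 at 23 °C, with differences between −1.92 (CCOAMT) and −0.69 (AT5G57510), and higher means in ozs3 at 4 °C, with differences between 0.04 (AT4G19460) and 1.08 (AT1G32920). All ozs3 arrays lay below all Col-0 arrays at 23 °C for 7 of the 8, where this held for 13.4% of all probe sets, and above them at 4 °C for 5 of the 8, against 15.5% of all. Of the 11 genes of the other direction, 10 had a higher mean in ozs3 at 23 °C, 7 of them without overlap (12.6% of all probe sets). At 4 °C 8 had a lower mean, 7 without overlap (15.3% of all), and 3 still had a higher mean in ozs3. These gaps differ from each other by the amount the rule asked for, so nothing is read from the counts. The order of the genotypes turned over without overlap at either temperature in 7 genes: AT1G76600, AT1G32920, AT5G57510, AT3G54000, NTMC2T6.1, AT3G43610 and AT4G10280.

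**Figure D4:**
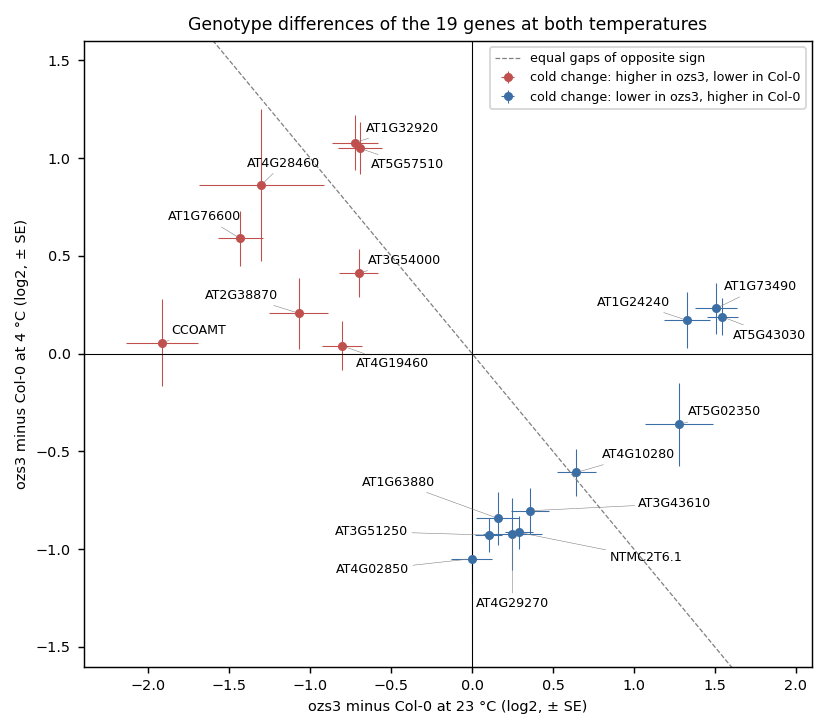
Difference between genotypes (ozs3 minus Col-0, log2, with SE bars from limma) at 4 °C (vertical axis) against 23 °C (horizontal axis) for the 19 genes; on the dashed line the gaps are equal in size and opposite in sign. CCOAMT, AT1G73490, AT5G43030 and AT1G24240 lie far out on the horizontal axis with 4 °C gaps of 0.06 to 0.23, and AT4G02850 and AT3G51250 lie far down the vertical axis with 23 °C gaps of −0.0035 and 0.10.

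The rule did not use the genotype difference averaged over both temperatures. Its estimate is uncorrelated with both cold changes where all groups have the same spread and arrays are unpaired, which holds only roughly here (the SDs of AT4G28460 ran from 0.04 to 1.07). The rule also asked for groups without overlap, which acts on the spread that the p-value uses. For genes whose responses oppose, this average differs from 0 when the gap between genotypes is wider at one temperature than at the other. It was tested with limma over all probe sets with Benjamini-Hochberg adjustment, and 11 of the 19 genes passed at an adjusted p under 0.05, against 11.3% of all probe sets. Among the 3053 genes with like cold changes in ozs3 and Col-0, which met the same demand for groups without overlap, 18.3% passed. The median size of the averaged difference was 0.38 for the 19 genes, 0.13 for those 3053 genes and 0.09 for all probe sets. Of the 19 genes, but not of the 3053, the rule asked that the gap between genotypes differ between temperatures. A gap at 1 temperature alone moves the average away from 0, so these comparisons partly follow from the choice of genes. Of the 11 genes that passed, the gap was wider at 23 °C for 7 and wider at 4 °C for 4.

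Of the 8 genes higher in cold ozs3, 4 were lower in ozs3 on average (5.98% of all probe sets were) and none was higher. CCOAMT was 1.91-fold lower, with a mean of 7.61 over the 6 ozs3 arrays and 8.54 over the 6 Col-0 arrays (difference −0.93 ± 0.16, limma adjusted p = 0.00186). AT4G19460 (−0.38 ± 0.09, limma adjusted p = 0.0128) and AT1G76600 (−0.42 ± 0.10, limma adjusted p = 0.0133) were also lower. AT2G38870 passed narrowly (−0.43 ± 0.13, limma adjusted p = 0.0450). That call was lost with each of 8 arrays left out, namely Col-0 replicates 2 and 3 and ozs3 replicate 3 at 23 °C, and Col-0 replicates 1 and 2 and ozs3 replicates 1, 2 and 3 at 4 °C (limma adjusted p between 0.0592 and 0.105). In all 4 genes the wider gap was the one at 23 °C, and the mean at 4 °C was higher in ozs3, for AT1G76600 without overlap. The averages of AT1G32920 (0.18 ± 0.10), AT5G57510 (0.18 ± 0.09), AT3G54000 (−0.14 ± 0.09) and AT4G28460 (−0.22 ± 0.27) did not pass.

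Of the 11 genes lower in cold ozs3, 3 were higher in ozs3 on average (5.34% of all probe sets were) and 4 were lower. AT1G73490 was 1.83-fold higher, at 9.48 over the 6 ozs3 arrays and 8.60 over the 6 Col-0 arrays (difference 0.87 ± 0.09, limma adjusted p = 6.33e-05). AT5G43030 was higher by the same amount (0.87 ± 0.07, limma adjusted p = 5.14e-06) and AT1G24240 by 0.75 ± 0.10 (limma adjusted p = 3.84e-04). In these 3 the gap was wider at 23 °C. The genes lower on average, with the wider gap at 4 °C, were AT4G02850 (−0.53 ± 0.09, limma adjusted p = 0.00172), AT3G51250 (−0.41 ± 0.06, limma adjusted p = 6.80e-04), NTMC2T6.1 (−0.31 ± 0.06, limma adjusted p = 0.00402) and AT1G63880 (−0.34 ± 0.10, limma adjusted p = 0.0333). Of these, NTMC2T6.1 was higher in ozs3 at 23 °C without overlap. The call for AT1G63880 was lost with each of 7 arrays left out, namely Col-0 replicates 1 and 2 and ozs3 replicates 2 and 3 at 23 °C, and Col-0 replicates 1 and 2 and ozs3 replicate 2 at 4 °C (limma adjusted p between 0.0535 and 0.0831).

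AT5G02350 (0.46 ± 0.15, limma adjusted p = 0.0653), AT4G29270 (−0.34 ± 0.13, limma adjusted p = 0.120), AT3G43610 (−0.22 ± 0.08, limma adjusted p = 0.106) and AT4G10280 (0.02 ± 0.09, limma adjusted p = 0.934) did not pass. With the replicate number as a block, AT5G02350 passed (limma adjusted p = 0.00407) and so did AT4G29270 (limma adjusted p = 0.0443). AT5G02350 was also called with array weights (limma adjusted p = 0.0176) and at 4 °C without Col-0 replicate 3 (0.00862) or ozs3 replicate 1 (0.0233). AT4G29270 passed when the Col-0 control replicate 3 (limma adjusted p = 0.0466) or the cold ozs3 replicate 2 (0.0473) was left out, and AT3G43610 without ozs3 replicate 1 at 4 °C (limma adjusted p = 0.0370). Among cell type markers, 1 of 3 measured root hair genes, XTH26, was lower in ozs3 on average (−0.77 ± 0.18, limma adjusted p = 0.0154), and none of 3 shoot genes and not the 1 xylem gene was called. The summed root hair level (log2) ran from 9.93 to 10.4 in ozs3 at 4 °C, 10.2 to 10.8 in ozs3 at 23 °C, 9.74 to 10.3 in Col-0 at 4 °C and 10.5 to 10.8 in Col-0 at 23 °C. Their part in the averaged differences was not tested.

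**Figure D5:**
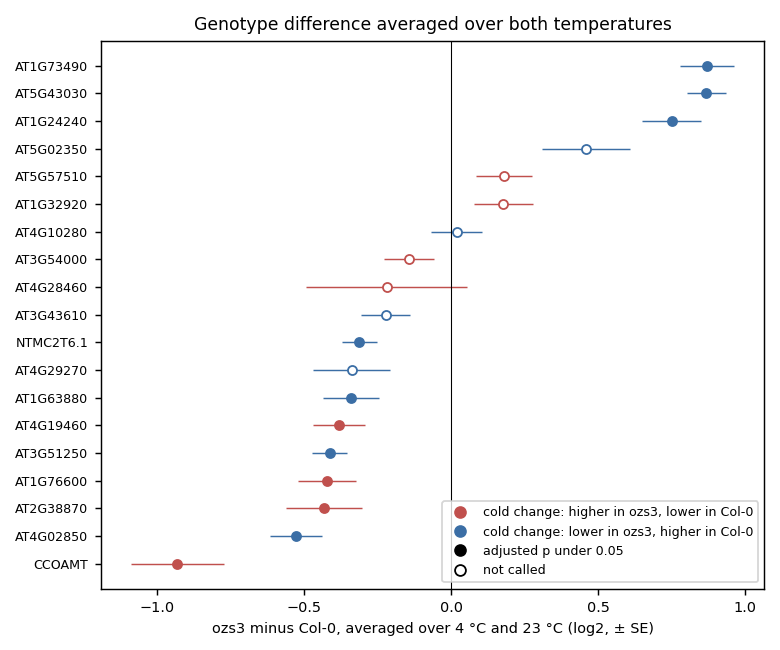
Difference between ozs3 and Col-0 averaged over both temperatures (log2, points with SE bars from limma) for the 19 genes; filled points passed at an adjusted p under 0.05 and open points did not, and colours give the direction of the cold change. CCOAMT (−0.93) and the trio of AT1G73490, AT5G43030 and AT1G24240 (0.75 to 0.87) lie furthest from 0.

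In mean level the 19 genes lay between percentiles 41.3 (AT1G63880) and 95.9 (AT1G32920) of the named genes they were chosen from. NTMC2T6.1, the gene at their median level, stood at percentile 62.9, so the set leaned towards brighter genes. The means of the 19 genes over all arrays lay between 5.81 and 10.96 with a median of 7.72, against 7.13 for all probe sets. In none was a group mean at or below 5. The median SD within groups was 0.16 for the 19 genes and 0.11 for all probe sets. No member had a further probe set assigned to it alone, so that each value rests on 1 probe set. Probe sets assigned to several genes or to none were not searched for the members.

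At the threshold, AT4G19460 (0.44 in ozs3, −0.40 in Col-0), AT3G54000 (0.41 and −0.70) and AT5G57510 (1.32 and −0.42) lay just inside. AT2G18690 (0.63 in ozs3, −0.395 in Col-0), AT3G25580 (−0.39 and 0.39) and AT1G31550 (−0.39 and 0.68) lay just outside. Another 18 genes had opposite changes of at least 0.4 but overlapping arrays, beside 2 of the loci left out by the rule. All 19 genes kept opposite signs in the same directions in all 14 settings that left out 1 array or scaled the arrays anew. Of the 19, 11 met the whole rule with any 1 of the 12 arrays left out. The other 8 met it in 11 of 12 such settings (AT2G38870, AT4G29270 and AT3G51250), in 10 (AT1G32920, AT5G57510 and AT1G63880), in 9 (AT3G54000) or in 6 (AT4G19460). Both rescalings left 8 of the 11: CCOAMT, AT4G28460, AT1G76600, AT5G43030, NTMC2T6.1, AT3G43610, AT1G73490 and AT1G24240.

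The members lay scattered over the genome. In the gene order of the TAIR10.1 assembly the closest 2, AT4G28460 and AT4G29270, were 99 genes apart. Of the 38 genes directly beside a member 14 had a named probe set, and none of these had opposite changes of 0.4 in both genotypes. AT4G02860, next to AT4G02850 and of the same PhzC/PhzF family, had small cold changes, 0.09 in ozs3 and 0.15 in Col-0. AT4G29260, next to AT4G29270 and also of the acid phosphatase family, had the same signs at smaller sizes, −0.39 in ozs3 and 0.17 in Col-0. AT4G28450, the SOF1 gene, lies beside AT4G28460 and was higher in the cold in both genotypes, by 0.54 ± 0.11 in ozs3 and 0.64 ± 0.11 in Col-0, so the opposite course of AT4G28460 did not extend to it. Beside AT2G38870, YLS5 was lower in ozs3 on average (−0.64, limma adjusted p = 6.99e-05), with cold changes of 0.35 in ozs3 and −0.15 in Col-0.

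None of the 19 genes is on any of 24 lists of textbook stress, hormone, nutrient and cell type genes. These lists hold 285 loci, of which 64, on 18 of the lists, were measured on named probe sets. With so few list genes measured, nothing is read from the absence of the 19. In the list of cold-regulated genes all 7 measured members rose in both genotypes, with a median of 2.64 in ozs3 (0.05 for all probe sets) and 3.86 in Col-0 (−0.0033 for all). Gene by gene, 4 of the 7 changed more in ozs3 and 3 more in Col-0, and the ozs3 changes include the control array that stood 1.23 above its group on this list. In ozs3 24.9% of all probe sets were called higher, and in Col-0 20.4%. Of the 5 measured heat shock genes 4 fell in ozs3 and 5 in Col-0 (26.2% and 23.5% of all probe sets were called lower). Of 2 measured lignin genes CCR2, a cinnamoyl-CoA reductase gene, rose in both genotypes by 1.62 in ozs3 and 0.79 in Col-0, and HCT, an acyltransferase gene of the same pathway, was not called in either, so the opposite course of CCOAMT was not seen in them. Of the 64 measured list genes 3 were called in opposite directions in the 2 genotypes, as were 86 of the 13334 named genes with a locus (0.645%). The 3 were AT2G21640 and AT2G41730, markers of mitochondrial stress that the rule left out, and PYE, a regulator of iron homeostasis, whose change in Col-0 was under 0.4.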

How the data were processed

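Total RNA from roots was labelled and hybridised to ATH1 arrays by the authors. The authors deposited log2 values of all probe sets on every array. Per the submitters' processing notes they came from RMA, which corrects background, normalizes arrays against each other and summarises probes; no version was given in the sources used here. Their scale was read from the values, which ran from 2.91 to 15.0. Array medians ran from 6.99 to 7.20, and because normalization evens out the arrays, a shift shared by most transcripts would be reduced. Of 22810 probe sets, 64 controls were left out and 22746 tested. A probe table named 1 gene for 13513, several for 503 and none for 8730. Loci of 13436 were matched through the TAIR10.1 gene table, used for names and gene order.

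With limma 3.58.1 (R 4.3.3; lmFit, contrasts, eBayes), 1 mean per group was estimated from the 12 arrays together, after a test on simulated data. Differences carry limma's moderated standard error (SE), and an adjusted p under 0.05 was a call. The averaged contrast was the mean of both ozs3 groups minus the mean of both Col-0 groups. The members, the lists and the rule for naming genes were chosen with earlier results of these data known. By that rule array values were to be given for the 12 genes of each direction with the largest smaller change, the 8 with the smallest averaged p and the 3 nearest the threshold, which took in all 19.

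Same-numbered ozs3 and Col-0 arrays deviated together (correlations 0.198 to 0.353 at 4 °C and 0.294 to 0.473 at 23 °C across probe sets), so the replicate number was tried as a block. The number of arrays limits the precision. Alternatives were other thresholds, scalings, filters, array weights, an intensity trend and each array left out. A planned motif search was not run, and no sequences were used here.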

Additional observations from a re-analysis of the deposited data

Results flagged for a closer look

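For all 19 genes the cold arrays lay on one side of the control arrays in ozs3 and on the other side in Col-0. This is what chose the genes, so the difference between the cold changes was not tested. This difference (cold change in ozs3 minus cold change in Col-0, log2) was largest among the genes higher in cold ozs3 for the PIP1 precursor gene AT4G28460 (2.16), AT1G76600 (2.02) and CCOAMT (1.97). It was 1.81 for AT1G32920, 1.74 for AT5G57510, 1.28 for the proteinase inhibitor gene AT2G38870, 1.11 for AT3G54000 and 0.85 for AT4G19460. Among the genes lower in cold ozs3 it was −1.64 for AT5G02350 and −1.36 for AT5G43030, both with C1 domains, and −1.28 for the RNA-binding protein gene AT1G73490. It was −1.25 for AT4G10280, −1.20 for NTMC2T6.1, −1.17 for AT4G29270, −1.16 for AT3G43610 and −1.16 for AT1G24240. The smallest were −1.05 for AT4G02850, −1.03 for AT3G51250 and −0.9999 for AT1G63880.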

How the results depend on the processing

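The number of genes follows the threshold. With a smallest change of 0.3, 15 genes were higher in ozs3 and lower in Col-0 and 27 the reverse, with 0.5 these were 3 and 6, and with 1 there were 0 and 0. Without asking for separate arrays 23 were higher in ozs3 and lower in Col-0 and 14 the reverse. Leaving out each array in turn gave 6 to 18 genes of that direction and 11 to 14 of the other, with 18 without Col-0 replicate 2 at 23 °C and 17 without Col-0 replicate 2 at 4 °C. Repeated quantile normalization kept 16 of the 19 genes and 1 common median kept 13, all 19 with the same directions in both. The former lost AT5G57510, AT4G19460 and AT5G02350. The latter lost AT1G32920, AT5G57510, AT4G19460, AT4G10280, AT4G02850 and AT4G29270. Other genes came in under both scalings. Quantile normalization gave 10 genes higher in ozs3 and lower in Col-0 and 12 the reverse, and the common median gave 9 and 10. For the averaged difference, 3 to 4 genes were called higher and 6 to 8 lower with 1 array left out. With the replicate block 4 were higher and 9 lower, and the block ended no call. The average of AT4G10280 changed sign with single arrays left out (−0.033 to 0.088), as did that of AT4G28460 (−0.499 to 0.033), and neither was called in any setting.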
